A study of Mus musculus with 4 samples.

Results

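Transcripts of 5 genes that mark eosinophils were followed on 4 arrays of cultured mouse bone marrow cells. They comprise 3 genes of granule proteins (Epx, Prg2 and Ear3) and 2 genes of receptors (Il5ra and Ccr3). Only probe sets annotated to a single gene symbol were used, which gave 1 probe set for each gene, or 5 of the 34958 probe sets with 1 symbol and 5 of the 18194 genes these cover. The genes were chosen by differences between these same arrays, low values of eosinophil genes after knockdown and a gap between the control arrays, so their values are a description and carry no test.

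The cultures were bone marrow cells of C57BL/6 mice that received lentivirus and then grew for 4 days with GM-CSF and IL-6, cytokines under which marrow cells become myeloid-derived suppressor cells (MDSCs). In the knockdown pair, kdLNC received shlncMDSC lentivirus, which carries a short hairpin RNA (shRNA) against the long noncoding RNA lncMDSC, and kdNC received control shRNA lentivirus. In the overexpression pair, oeLNC received lncMDSC overexpression lentivirus, and oeNC received its overexpression control lentivirus. All 4 groups thus share strain, cytokines, culture time and lentiviral infection, and each is 1 culture on 1 Affymetrix Mouse Genome 430 2.0 array, so no value has a replicate error and limma could not be fitted. The labels give neither the age nor the sex of the mice and name no sort of the cells. The annotation held no probe set named lncMDSC, and the knockdown and overexpression themselves were not checked here. Values are log2 of the deposited probe set intensities, and the array medians lay between 4.17 and 4.24. Precision is limited by the number of arrays, and no background signal was estimated. The 3'-5' log2 ratio of the actin control probe sets, a sign of RNA quality, was 1.96 in kdLNC, 1.61 in kdNC, 1.97 in oeLNC and 1.96 in oeNC. That of the Gapdh control probe sets was 0.69 in kdLNC, 0.51 in kdNC, 0.65 in oeLNC and 0.53 in oeNC.

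Eosinophils are granulocytes that arise in the bone marrow and store cationic proteins in large granules, which they release against parasites and in allergic inflammation. Interleukin 5 drives their formation through a receptor made of a specific alpha chain and a beta chain shared with the receptors for GM-CSF and interleukin 3. Eotaxins draw the mature cells into tissue through the chemokine receptor CCR3. GATA1, together with PU.1 and members of the C/EBP family, directs the lineage and the transcription of its granule genes.

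Promoter sequences are shown because these genes shared a pattern over the arrays and because the factors of the lineage have known DNA words. RefSeq (GRCm38.p6) gave a promoter entry for 3 of the 5 genes, Epx, Il5ra and Ccr3, and also for Prg3, the neighbour of Prg2. The 250 bases before the annotated transcription start are printed 5' to 3' on the strand of the gene, at chr11:87875537-87875786 (minus strand) for Epx, chr6:106749038-106749287 (minus strand) for Il5ra, chr9:124021721-124021970 (plus strand) for Ccr3 and chr2:84987965-84988214 (plus strand) for Prg3. Capitals mark matches to the GATA words on either strand, which are AGATAA and AGATAG, and the same words with T as the first letter.
Epx: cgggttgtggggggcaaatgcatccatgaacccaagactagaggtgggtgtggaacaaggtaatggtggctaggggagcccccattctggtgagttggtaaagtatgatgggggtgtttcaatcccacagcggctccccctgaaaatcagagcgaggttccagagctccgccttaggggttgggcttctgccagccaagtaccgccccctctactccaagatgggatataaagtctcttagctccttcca
Il5ra: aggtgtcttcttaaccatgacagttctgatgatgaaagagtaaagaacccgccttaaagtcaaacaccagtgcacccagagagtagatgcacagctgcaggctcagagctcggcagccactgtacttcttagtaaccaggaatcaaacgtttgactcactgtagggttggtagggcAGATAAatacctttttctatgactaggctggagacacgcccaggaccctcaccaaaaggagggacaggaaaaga
Ccr3: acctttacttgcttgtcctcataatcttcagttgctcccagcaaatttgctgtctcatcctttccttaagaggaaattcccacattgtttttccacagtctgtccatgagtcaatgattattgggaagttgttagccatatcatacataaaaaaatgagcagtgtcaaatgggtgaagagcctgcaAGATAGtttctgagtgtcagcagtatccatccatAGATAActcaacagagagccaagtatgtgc
Prg3: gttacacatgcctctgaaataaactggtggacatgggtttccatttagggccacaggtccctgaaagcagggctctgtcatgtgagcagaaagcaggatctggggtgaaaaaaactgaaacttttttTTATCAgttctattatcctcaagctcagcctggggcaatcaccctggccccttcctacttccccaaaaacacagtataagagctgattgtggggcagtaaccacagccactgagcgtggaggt

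Il5ra held 1 GATA match, 74 to 69 bases before the start, and Prg3 held 1 on the opposite strand, 123 to 118 bases before it. Ccr3 held 2 GATA matches, 64 to 59 and 30 to 25 bases before the start. The Epx window held none of the words searched. Ccr3 also held a C/EBP word (TTNNGNAA, either strand) 189 to 182 bases before the start and, next to it without overlap, a PU.1 word (GAGGAA, either strand) 181 to 176 bases before it, and Prg3 held a C/EBP word 65 to 58 bases before it. Of 32841 promoters of this length, 26.5% held a GATA word, 36.9% the C/EBP word and 23.3% the PU.1 word. A match describes letters and is not a bound site, and none of these arrays measured binding.

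**Figure D1:**
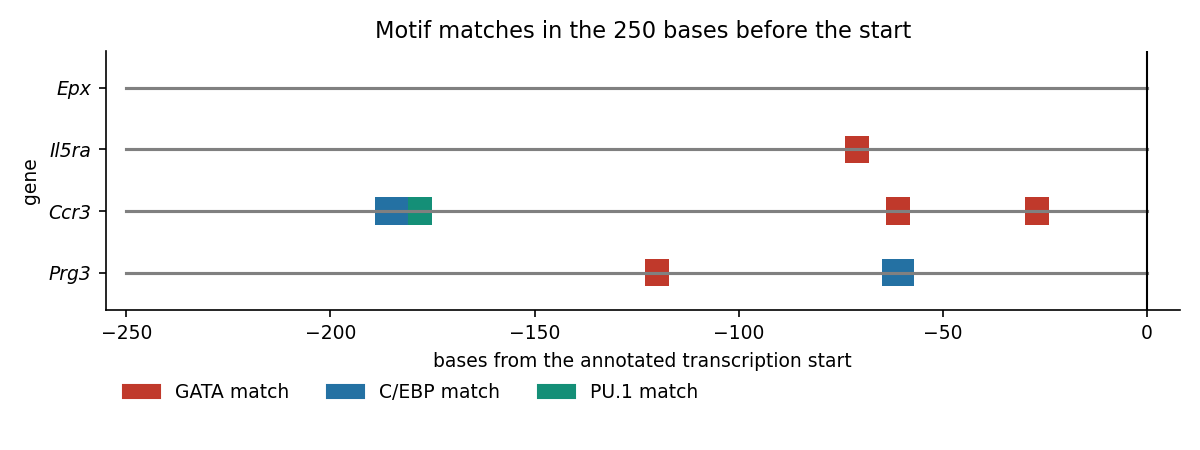
Matches to the GATA, C/EBP and PU.1 words in the 250 bases before the annotated start of 4 genes, against distance from the start in bases. Ccr3 holds 2 GATA matches within 64 bases of its start, Il5ra and Prg3 hold 1 each, and Epx holds none.

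All 5 genes were highest in kdNC. Epx, Ear3 and Ccr3 were at least 2-fold higher in kdNC than on any of the other 3 arrays, Prg2 was 1.84-fold and Il5ra 1.22-fold above the next array. The lowest array was oeNC for 4 genes and oeLNC for Prg2. kdNC was the highest of the 4 arrays for 23.5% of all genes and at least 2-fold above every other array for 0.066% (12 of 18194). These contrasts served to choose the genes, so nothing is read from the shares. In bulk cultures, fewer cells of a type and less RNA per cell cannot be told apart.

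Epx encodes eosinophil peroxidase, the granule enzyme that makes hypohalous acids. Its probe set (1449136_at, chromosome 11) had an intensity of 198 in kdLNC, 431 in kdNC, 136 in oeLNC and 132 in oeNC, or 7.63, 8.75, 7.09 and 7.05 on the log2 scale. Epx stood apart in kdNC, was intermediate in kdLNC and nearly level in the overexpression pair. Between 83.8% and 93.6% of probe sets of the same array lay below it.

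Prg2 encodes major basic protein, the crystalline core of the granule. Its probe set (1422873_at, chromosome 2) had 935 in kdLNC, 1722 in kdNC, 840 in oeLNC and 919 in oeNC, log2 values of 9.87, 10.75, 9.72 and 9.84. Prg2 was high in kdNC, and the other 3 arrays lay within 0.15 of each other on the log2 scale. It lay above at least 96.8% of the probe sets on every array.

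Ear3 belongs to the eosinophil-associated ribonucleases, the mouse counterparts of the human eosinophil cationic protein and eosinophil-derived neurotoxin. Its probe set (1422412_x_at) had 53.5 in kdLNC, 377 in kdNC, 51.5 in oeLNC and 28.5 in oeNC, or 5.74, 8.56, 5.69 and 4.83 on the log2 scale. kdLNC and oeLNC were nearly level for Ear3, and the 2 control arrays held its extremes. The suffix _x_at marks a probe set whose probes can match other sequences, and the Ear genes are near-identical copies, so which family members gave this signal is uncertain.

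Il5ra encodes the alpha chain of the interleukin 5 receptor. Its probe set (1421620_at, chromosome 6) had 14.7 in kdLNC, 17.9 in kdNC, 13.3 in oeLNC and 11.5 in oeNC, log2 values of 3.88, 4.16, 3.73 and 3.52. Il5ra lay below the median probe set of the array on all 4 arrays, and its whole range was 0.64 on the log2 scale.

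Ccr3 encodes the eotaxin receptor. Its probe set (1422957_at, chromosome 9) had 21.0 in kdLNC, 44.7 in kdNC, 21.3 in oeLNC and 13.6 in oeNC, or 4.39, 5.48, 4.41 and 3.77 on the log2 scale. As for Ear3, kdLNC and oeLNC were nearly level, kdNC was high and oeNC low. Ccr3 was dim, above the array median in kdLNC, kdNC and oeLNC and below it in oeNC.

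**Figure D2:**
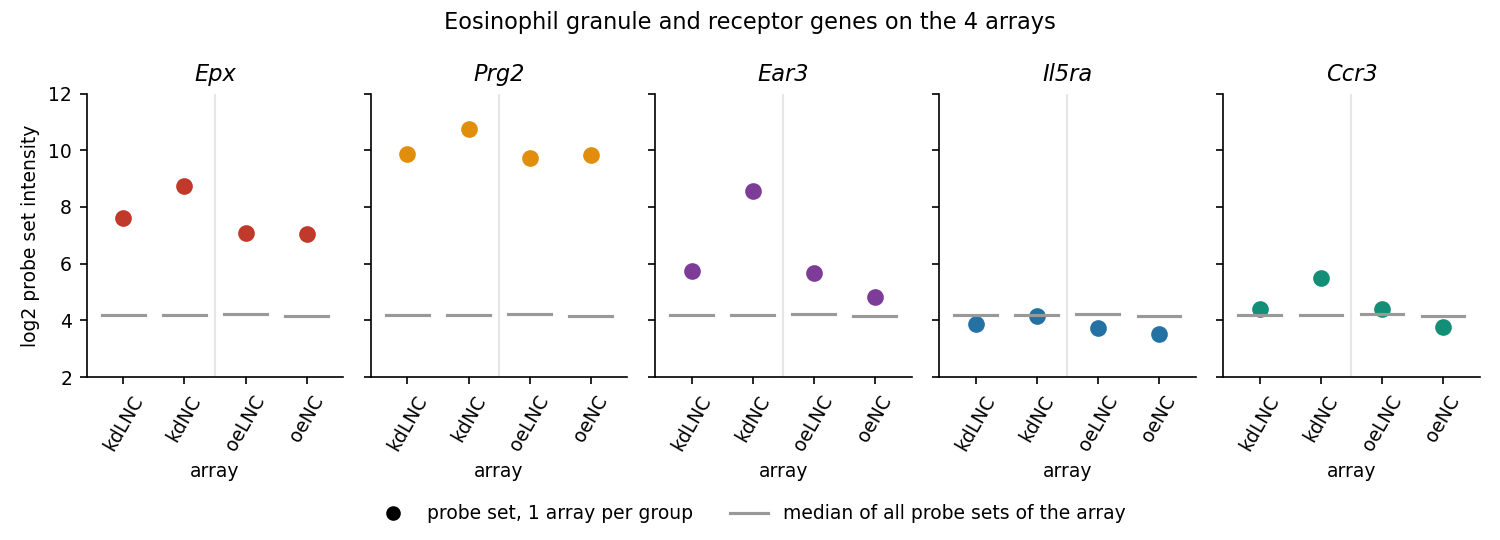
Log2 probe set intensity of the 5 genes on the 4 arrays, 1 point per array, with the median of all probe sets of each array as a grey line. Each gene is highest in kdNC, Epx, Prg2 and Ear3 lie above the medians of all 4 arrays, and Il5ra lies below them.

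The knockdown pair asks how the cultures differed with the shRNA against lncMDSC. All 5 genes were lower in kdLNC than in kdNC, with a median log2 difference of -1.09, against -0.05 over all genes. Ear3 was 7.05-fold lower (log2 difference -2.82), Epx 2.18-fold lower (-1.12) and Ccr3 differed by -1.09. These 3 of 5 passed 2-fold downward, as did 0.231% of all genes. Prg2, at 1.84-fold lower (-0.88), lay just outside that threshold, and Il5ra was 1.22-fold lower (-0.28). No gene of the 5 was at least 2-fold higher, as 0.308% of all genes were. As a yardstick of spread, the SD of the difference oeNC minus kdNC was taken over the 500 genes nearest in level. It was 0.61 for Epx, 0.55 for Prg2, 0.62 for Ear3, 0.35 for Il5ra and 0.40 for Ccr3, mixes effects of vector, culture and array, and does not replace a replicate error. Beyond 1 such SD, 4 genes were lower in kdLNC, and beyond 2 SD, Ear3 and Ccr3. Between the controls themselves, 5 were lower in oeNC than in kdNC beyond 1 SD and 3 beyond 2 SD. Shares of all genes beyond these SD limits are not given here, so the SD counts have no background to be read against.

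The overexpression pair asks the same of added lncMDSC. None of the 5 genes differed by 2-fold in either direction, as 0.577% of all genes did downward and 0.341% upward, and the median difference oeLNC minus oeNC was 0.21, against 0.04 over all genes. Ear3 was 1.80-fold higher in oeLNC than in oeNC (0.85) and Ccr3 1.56-fold higher (0.64), both beyond 1 SD of the control difference. Epx (0.04), Prg2 (-0.13) and Il5ra (0.21) lay within it. The sign for Epx turned under median centring (-0.03), and the other scalings gave up to 0.14.

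The 2 control arrays differed in the same genes, and by more. All 5 genes were lower in oeNC than in kdNC, with a median difference of -1.71, against -0.02 over all genes. Ear3 was 13.2-fold lower in oeNC (-3.72), Ccr3 3.29-fold lower (-1.72) and Epx 3.26-fold lower (-1.71), and these 3 of 5 were at least 2-fold lower, as were 2.69% of all genes. Prg2 was 1.87-fold lower (-0.91) and Il5ra 1.56-fold lower (-0.64). Ear3 had the lowest difference of all 18194 genes both here and in the knockdown pair. Both comparisons use the kdNC array, so they are not independent of each other. Vector, culture and array cannot be told apart in the difference between controls.

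Where both controls were left out, differences of all 5 genes were smaller than in the comparisons with kdNC, though not all were smaller than in the overexpression pair. Between oeLNC and kdLNC, none of the 5 genes differed by 2-fold, as 2.61% of all genes did downward and 1.15% upward, and the median difference was -0.14, against 0.10 over all genes. Epx was lower by 0.54 on the log2 scale in oeLNC (7.09, against 7.63 in kdLNC). Prg2 (-0.15), Il5ra (-0.14), Ear3 (-0.05) and Ccr3 (0.02) lay closer, and the signs for Ear3 and Ccr3 turned with the scaling. Set against the control of the other pair, all 5 genes were higher in kdLNC than in oeNC, with a median difference of 0.58, and all 5 were lower in oeLNC than in kdNC, with a median of -1.07. In kdLNC the direction for Epx (0.58), Ear3 (0.91) and Ccr3 (0.63) thus turned with the control array used, while the value for Prg2 against oeNC was near 0 (0.025).

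**Figure D3:**
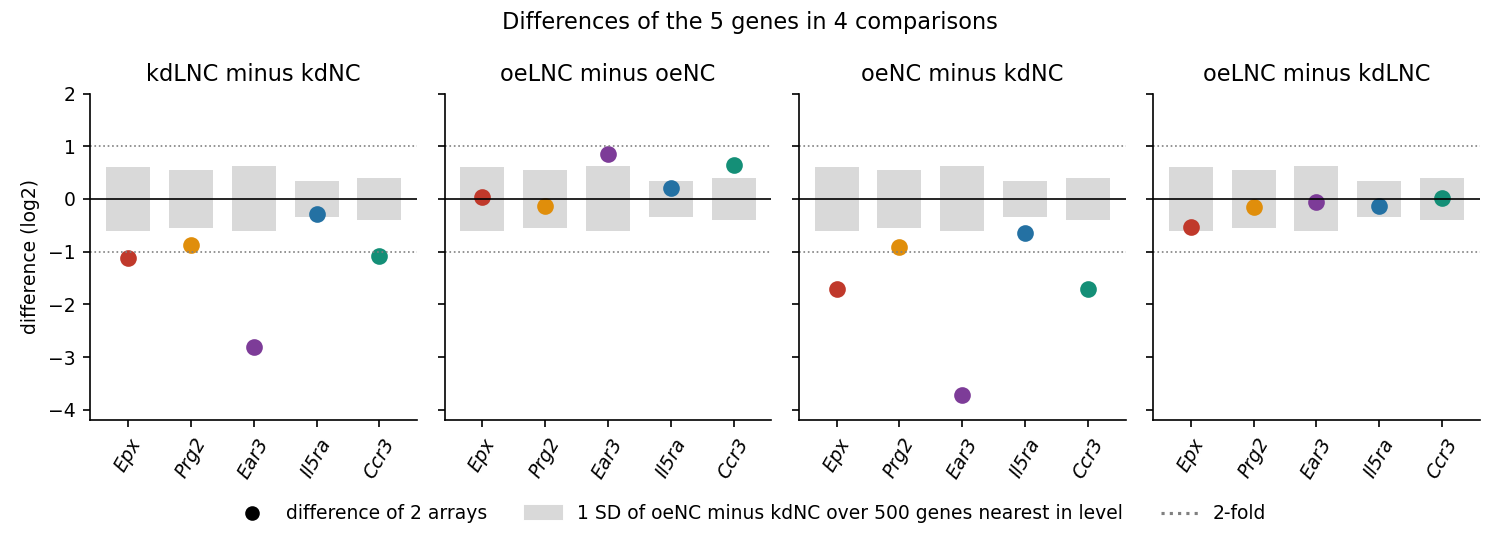
Log2 difference of the 5 genes in 4 comparisons, 1 point per gene, with grey bars for 1 SD of oeNC minus kdNC over the 500 genes nearest in level and dotted lines at 2-fold. Both comparisons with kdNC lie below 0 for every gene, down to -2.82 and -3.72 for Ear3, while no gene reaches 2-fold in the others.

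Other genes of the eosinophil lineage were taken from a list of 59, of which 45 were measured by a probe set of their own. Values are those of the brightest probe set unless another is named. In the knockdown pair, 2 of 45 passed 2-fold downward and 1 upward, against 0.231% and 0.308% of all genes. Their median difference was -0.14, against -0.05 over all genes. In the overexpression pair none differed by 2-fold, against 0.577% of all genes downward and 0.341% upward (median 0.04, as over all genes). Between controls 5 passed 2-fold downward in oeNC and none upward, against 2.69% and 2.01% of all genes. The median there was -0.24, against -0.02 over all genes. Between oeLNC and kdLNC, 5 passed 2-fold downward in oeLNC and none upward (median -0.02), against 2.61% and 1.15% of all genes (median 0.10). Those lower were Id2 (-1.30), Ikzf1 (-1.12), Csf2 (-1.74), Ccl7 (-1.95) and Il13 (-1.26), whereas none of the 5 eosinophil genes passed 2-fold there. The array kdNC was the highest for 17 of the 45, against 23.5% of all genes, and most of the list did not share the peak of the 5 genes.

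Among granule proteins, Prg3, a homologue of major basic protein, lies next to Prg2 on chromosome 2 with 0 genes between. Prg3 had log2 values of 7.46 in kdLNC, 8.53 in kdNC, 6.91 in oeLNC and 6.61 in oeNC, differences of -1.07 in the knockdown pair and -1.92 between controls. Its order of the 4 arrays matched that of Epx. Of the 14 other granule and ribonuclease genes, Cd63 and all Ear genes other than Ear3, 11 in all, had no probe set of their own, and Rnase2a and Rnase2b were dim, with log2 values of 1.96 to 2.67.

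Among 16 receptors and surface proteins measured, none differed by 2-fold in either pair. Csf2rb, the beta chain shared by the receptors for interleukin 5, interleukin 3 and GM-CSF, was level at 11.31 in kdLNC, 11.32 in kdNC, 11.38 in oeLNC and 11.43 in oeNC. Siglecf, the sialic acid-binding lectin used to identify mouse eosinophils, had 6.27 in kdLNC, 6.82 in kdNC, 6.31 in oeLNC and 6.91 in oeNC. Siglecf was thus highest in oeNC, the array in which 4 of the 5 genes were lowest. Itga4, the alpha 4 integrin, was lower in oeNC (6.84) than in kdNC (7.94) at its brightest probe set. Its 5 probe sets disagreed, and another had 5.31 in oeNC and 5.03 in kdNC.

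Among 11 regulators, 5 were highest in kdNC, against 23.5% of all genes. Gata1 was 1 of these 5, but kdLNC lay only 0.006 lower on the log2 scale. Both GATA factors were thus nearly level in the knockdown pair. Gata1 had 5.68 in kdLNC, 5.68 in kdNC, 5.25 in oeLNC and 5.37 in oeNC, and Gata2 had 7.73, 7.70, 7.56 and 7.11 on the same arrays. Spi1, which encodes PU.1, lay between 9.16 and 9.38 on the 4 arrays. Cebpa, which encodes C/EBPα, had 6.26 in kdLNC, 6.58 in kdNC, 6.17 in oeLNC and 5.95 in oeNC, in the order of Epx and with differences close to those of Il5ra. Zfpm1, which encodes the GATA1 cofactor FOG1, was highest in kdNC (7.30, against 6.71 to 6.81 on the other arrays). Id1, an inhibitor of basic helix-loop-helix factors, had a wider range in the same order, with 7.98 in kdLNC, 8.91 in kdNC, 7.83 in oeLNC and 7.23 in oeNC. Id2, of the same family, was the gene at least 2-fold higher in kdLNC (10.04, against 8.97 in kdNC) at its brightest probe set, while another of its probe sets had 9.03 in kdLNC and 9.16 in kdNC.

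Of 5 enzymes of lipid mediators, Alox15, the lipoxygenase of the eoxin and lipoxin route, had 7.25 in kdLNC, 8.35 in kdNC, 7.19 in oeLNC and 7.16 in oeNC. Alox15 was level except in kdNC, as Prg2 was. The other 4, among them leukotriene C4 synthase (Ltc4s, 3.94 to 4.62), differed by less than 2-fold in both pairs. Among 10 ligands, Il5 (1.92 to 2.26) and the eotaxin gene Ccl11 (2.34 to 2.40) stayed far below the array medians. Ccl7, in human a further ligand of CCR3, had 11.29 in kdLNC, 10.99 in kdNC, 9.34 in oeLNC and 8.47 in oeNC, low in the overexpression pair and without a peak in kdNC.

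**Figure D4:**
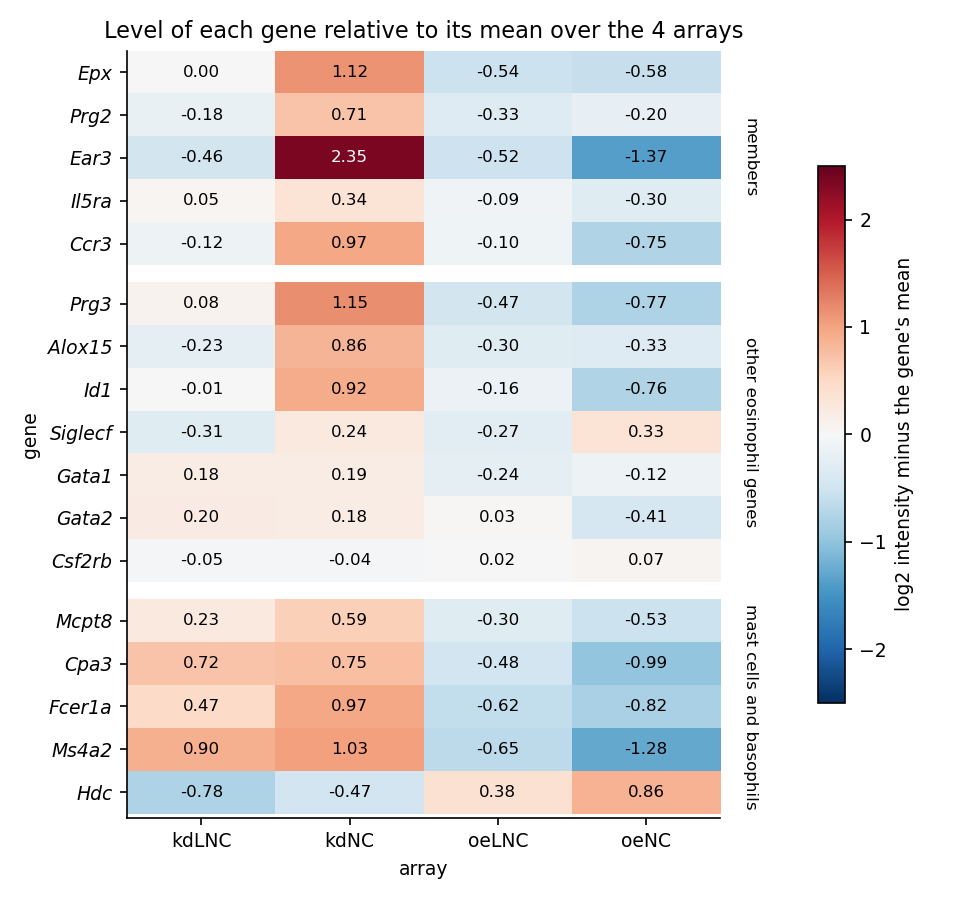
Log2 level of each gene on the 4 arrays minus its mean over them, for the 5 genes, for 7 other eosinophil genes and for the 5 genes of mast cells and basophils that differed by 2-fold between controls. The kdNC column is highest for the 5 genes, Prg3, Alox15 and Id1, and by a small margin for Gata1 and Ms4a2. For Cpa3 and Ms4a2 kdLNC and kdNC are nearly level. Mcpt8, Cpa3, Fcer1a and Ms4a2 are at least 2-fold lower in oeNC than in kdNC, and Hdc runs the other way.

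Marker lists of other cells moved with part of this pattern. Of 12 measured genes of mast cells and basophils, cells that carry the IgE receptor, none differed by 2-fold in the knockdown pair (median -0.10). Of all genes, 0.231% did so downward in that pair and 0.308% upward. Between controls, 4 of the 12 passed 2-fold downward in oeNC and 1 upward, against 2.69% and 2.01% of all genes. Ms4a2, the beta chain of the IgE receptor, had 7.53 in kdLNC, 7.67 in kdNC, 5.98 in oeLNC and 5.36 in oeNC. Hdc, the histamine-forming enzyme, had 9.43, 9.74, 10.59 and 11.07 on the same arrays. Ms4a2 and Hdc thus separated the knockdown arrays from the overexpression arrays, in opposite directions. Over the list, 6 of 12 genes were highest in kdNC, against 23.5% of all genes, and 6 lay above the median level. The mast cell proteases Mcpt4 (2.91 to 3.56) and Cma1 (3.39 to 4.07) were dim. The mean log2 level of the list was 5.60 in kdLNC, 5.73 in kdNC, 5.47 in oeLNC and 5.25 in oeNC. This is the order of the mean of the 5 eosinophil genes. In the knockdown pair 10 of 12 were lower in kdLNC, as were 10744 of all 18194 genes. In the overexpression pair 9 were higher in oeLNC, as were 9931 of all genes. Between controls 8 were lower in oeNC, as were 9482 of all genes. The summed intensity of the list was 2473 in kdLNC, 3014 in kdNC, 2674 in oeLNC and 3105 in oeNC. For the 5 eosinophil genes the sum was 1222 in kdLNC, 2593 in kdNC, 1063 in oeLNC and 1104 in oeNC.

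Of all genes, 0.231% passed 2-fold downward in the knockdown pair, and 2.69% downward and 2.01% upward between controls. The mature neutrophil list had 10 measured genes. In kdLNC, 6 of them passed 2-fold downward relative to kdNC (median -1.05), while between controls none did and 1 passed it upward in oeNC (median 0.04). Their summed intensity was 22778 in kdLNC, 34299 in kdNC, 33453 in oeLNC and 35683 in oeNC. Neutrophil genes were thus low in kdLNC alone, which is not the order of the eosinophil genes. Of 5 measured B cell genes, 4 passed 2-fold downward in oeNC relative to kdNC (median -1.34) and none in kdLNC (median 0.02), with sums of 3393 in kdLNC, 3347 in kdNC, 1467 in oeLNC and 1569 in oeNC. Of 5 measured genes of T and NK cells, all 5 were lower in kdLNC than in kdNC (median -0.13). So were 10744 of all 18194 genes. All 5 were higher in oeLNC than in oeNC (median 0.44), as were 9931 of all genes. Of the 5, 4 were lower in oeNC than in kdNC (median -0.45), as were 9482 of all genes. Nkg7 (-1.03) and Gzma (-1.66) were lower there by over 2-fold. The mean log2 level of the 5 T and NK cell genes was 6.13 in kdLNC, 6.34 in kdNC, 6.06 in oeLNC and 5.69 in oeNC. This is the order of the mean of the 5 eosinophil genes. Their summed intensity, that of the T and NK cell genes, was 696, 744, 458 and 333 on the same arrays. The actin ratio was lowest in kdNC, while the Gapdh ratio was nearly equal in kdNC (0.51) and oeNC (0.53). The part of other cell types and of these ratios in the values of the 5 genes was not tested.

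The 5 genes did not follow 1 profile equally. Their mean profile, each gene centred on its own mean over the 4 arrays, was -0.14 in kdLNC, 1.10 in kdNC, -0.32 in oeLNC and -0.64 in oeNC. Epx and Ccr3 lay closest to it, at a root mean square distance of 0.14 each, followed by Prg2 (0.30), Il5ra (0.44) and Ear3 (0.75). Ear3 departed by a wider range (3.72 on the log2 scale), Prg2 and Il5ra by narrower ones (1.03 and 0.64). Without kdNC the ranges were 0.58 for Epx, 0.15 for Prg2, 0.91 for Ear3, 0.36 for Il5ra and 0.64 for Ccr3.

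Over the 4 arrays, 1588 genes varied by at least 1 on the log2 scale, and the 10 of these nearest to the mean profile lay at distances of 0.15 to 0.20. In order they were Id1, Fdps (farnesyl diphosphate synthase), Prg3, Rflnb, Tuba8 (an alpha tubulin), Axl (a receptor tyrosine kinase), Arsb (arylsulfatase B), Cxcl11 (a chemokine), Alox15 and Igkv6-14 (an immunoglobulin light chain segment). Id1, Prg3 and Alox15 were in the list of other eosinophil genes. Fdps, the nearest outside it, had 6.30 in kdLNC, 7.38 in kdNC, 6.06 in oeLNC and 6.05 in oeNC. The 1 other probe set of Fdps was not highest in kdNC. All 10 were highest in kdNC and 9 were lowest in oeNC, Arsb being lowest in kdLNC. Their choice by nearness to the mean profile largely sets this order, so nothing is read from it. Of 8 other probe sets for these genes, 6 were also highest in kdNC, as were 23.5% of all genes at their brightest probe set. With 4 points per profile, such likeness is a description of these arrays.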

How the data were processed

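The authors hybridised RNA of 4 cultures to Affymetrix Mouse Genome 430 2.0 arrays and deposited normalized and summarised probe set intensity values on a linear scale for 45101 probe sets. The submitters' processing notes name RMA, and its version and settings are not given in the sources used here. Groups were taken from the transfection labels. The log2 of each intensity was taken, and differences of 2 arrays were computed in Python 3.11.15 (pandas 2.3.3, numpy 2.4.6, with statsmodels 0.14.6 for loess) and drawn with matplotlib 3.10.9. In the platform annotation 34958 probe sets carry 1 symbol, while 932 carry more than 1 and 9211 carry none; genes were named from the 34958. The brightest probe set on average stood for a gene. No filter on dim probe sets was applied.

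The 5 genes, the lists and the comparisons were chosen with earlier results of these data known, so no list is independent evidence. With 1 array per group no p-value was computed. Percentages of all genes refer to the same comparison and fold threshold. Named were the 5 genes, members of the eosinophil list at least 2-fold different in any comparison or listed as lineage markers, the brightest and most different markers of other cells where a result turned on them, and the 10 genes nearest in profile. The calculation was tested on simulated arrays with known changes. Alternatives were median centring, quantile normalization, loess (span 0.3), the mean of all probe sets, removal of probe sets with the suffixes _s_at, _x_at or _a_at, level filters at the 50th and 70th percentiles, thresholds of 1.5-fold and 3-fold, and other control arrays. Promoters and gene order came from RefSeq (GRCm38.p6).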

Additional observations from a re-analysis of the deposited data

How the results depend on the processing

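No paired analysis was possible because 1 array stands for each group, and leaving out an array leaves its group empty. An alternative was taken to move a value when it shifted it by more than the control SD. For a median this limit was divided by the square root of the number of genes. A count of genes was taken to move when it changed by more than 1.5-fold or between none and some. Over the alternatives, 96 values and counts of the 5 genes together kept within these limits, 15 moved and 1 reversed. For single genes 120 values did so, 13 moved and 3 reversed. Each gene has 1 probe set, so the mean of all probe sets, suffix removal and level filters could only keep or drop its deposited value. Values kept there say nothing about stability. Scaling never shifted the median of all genes by 0.1, and it moved no value of the 5 genes beyond the limit. The choice of control moved most.

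With oeNC as the control of kdLNC, an alternative chosen after seeing the data, the median of the 5 genes was 0.58 and 0 were 2-fold lower, with Epx at 0.58, Ear3 at 0.91 and Ccr3 at 0.63. With kdNC as the control of oeLNC, also chosen after seeing the data, their median was -1.07 and 4 were 2-fold lower. The other 45 eosinophil genes then had a median of 0.035 with 0 lower and 6 higher in the knockdown pair, and of -0.15 with 6 lower in the overexpression pair. Against the mean of both controls, the median of the 5 genes was -0.27 with 0 lower in the knockdown pair and -0.58 with 1 lower in the overexpression pair. The 45 genes then had 0 lower and 2 higher in the knockdown pair, and a median of -0.062 with 1 lower in the overexpression pair. Shares of all genes under these other controls are not given here, so the counts have no background to be read against.

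At 1.5-fold, 2 of the 5 genes were higher in oeLNC than in oeNC and 5 were lower in oeNC than in kdNC, and at 3-fold 1 was lower in kdLNC. Shares of all genes at these thresholds are not given here, so these counts have no background to be read against. The filter at the 70th percentile left only Epx and Prg2, of which 1 was 2-fold lower in kdLNC, the median was -0.042 in the overexpression pair, and between controls the median was -1.31 with 1 lower. Without probe sets of the suffixes _s_at, _x_at or _a_at, Ear3 was lost, and the median between controls was -1.31. In that setting and with the mean of all probe sets, 0 of the other eosinophil genes were 2-fold higher in kdLNC, against 2 with median centring or loess, and the mean of all probe sets left 3 that were 2-fold lower in oeLNC than in kdLNC. The cause of these shifts was not tested beyond the genes and arrays each setting drops. Il5ra lay below the array median on all 4 arrays and Ccr3 in oeNC, where signal is dim.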

Other observations

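Probe sets without a gene symbol in the annotation lay outside the comparisons. Of 9211 such probe sets, 4 (0.0434%) were at least 2-fold higher in kdNC than on every other array, as 0.066% of named genes were. The brightest, 1449846_at, had an intensity of 808 in kdLNC, 6137 in kdNC, 2063 in oeLNC and 757 in oeNC. The next, 1422411_s_at, had 491 in kdLNC, 2603 in kdNC, 810 in oeLNC and 454 in oeNC. Both had their extremes on the 2 control arrays, as Ear3 did, and were higher in oeLNC than in kdLNC. They were chosen after their values were seen, and no gene is assigned to them here.

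Besides Epx, Ear3 and Ccr3, 9 genes were at least 2-fold higher in kdNC than on every other array. Prg3 and Alox15 were in the list of other eosinophil genes, and Arsb, Gprc5b, Cxcl11, Perp, Fdps, Ccr9 and Axl were in none of the eosinophil lists. These calls rest on the brightest probe set, and the other probe set of Fdps was not highest in kdNC. Ccr9, a chemokine receptor, had log2 values of 6.76 in kdLNC, 7.83 in kdNC, 6.15 in oeLNC and 6.47 in oeNC.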
